A study of Mus musculus with 19 samples.

Results

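Histone and chromatin modifiers are the enzymes and motor proteins that write, remove or reposition the marks and nucleosomes along DNA. They were followed here in mouse brain as the probe sets whose only gene symbol belongs to the lysine demethylases (Kdm1 to Kdm8), the Kmt2, Setd and Ehmt lysine methyltransferases, the protein arginine methyltransferases (Prmt), the histone deacetylases (Hdac), the sirtuins (Sirt), the CHD remodellers (Chd) or the SWI/SNF-related proteins (Smarc). Kdm5c, Kdm5d and Kdm6a, which lie on the sex chromosomes, were left out. Probe sets were matched by gene name alone, but these members and the gene lists used below were chosen with earlier results of these data known. The match gave 175 probe sets of 79 genes, out of 45037 probe sets on the array that are not controls. Of these, 120 probe sets of 73 genes were bright enough to be tested, averaging 4 or more on the log2 scale over all arrays, as were 20473 probe sets in all. The array as a whole names 18193 genes through probe sets of their own. The 55 others averaged between 1.79 and 3.96, and Hdac10, Kdm4d, Prmt6, Setd1a, Sirt4 and Sirt6 had no tested probe set.

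The RNA came from brains of male mice on 19 single-colour Affymetrix arrays in 4 groups. SCA3 transgenic mice given CCI-779 had 5 arrays, SCA3 transgenic mice given placebo had 5, wild-type (wt) mice given CCI-779 had 5 and wt mice given placebo had 4. CCI-779 was injected intraperitoneally at 20 mg/kg, 3 times a week, over a 6-week course that began when the animals were 5 weeks old, and placebo was injected as often. SCA3 is spinocerebellar ataxia type 3, an inherited neurodegenerative disease caused by a polyglutamine expansion in ataxin-3. The promoter and line of the transgene are not given in the sources used here. CCI-779 (temsirolimus) is an ester of rapamycin that inhibits the kinase mTOR, a regulator of protein synthesis and autophagy. Whether each array holds RNA of its own animal is not stated, and p-values therefore reflect variation among arrays that may be technical.

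In the nucleus, DNA is wound around histones whose tails carry methyl and acetyl groups. Methylation of lysine 4 of histone H3 by the KMT2 and SETD1 enzymes marks active promoters and enhancers, methylation of lysine 9 by EHMT1 and EHMT2 marks silenced chromatin, and KDM enzymes remove such marks. Histone deacetylases and sirtuins take off acetyl groups, while SWI/SNF (BAF) complexes and CHD proteins slide or evict nucleosomes using ATP. In brain, subunits of the BAF complex are exchanged as neurons mature, and class II deacetylases such as HDAC4 and HDAC5 move between cytoplasm and nucleus with neuronal activity.

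Some arrays stood apart or differed with the drug in measures other than these genes. Mean intensity was 443 to 469 on all arrays. SCA3 CCI-779 replicates 2 and 5 lay at -42.4 and -39.2 on the second principal component of the tested probe sets, against -2.47 to 1.96 for the other 3 arrays of that group. The wt CCI-779 array called replicate 1, whose label carries no number, lay at -66.3 on the first component and had an actin 3' minus 5' difference of 2.55 (log2), the highest of all arrays. The mean log2 intensity of 18 hybridisation spike-in probe sets, which read RNA added by the laboratory, was 10.55 ± 0.09 in SCA3 CCI-779, 11.36 ± 0.18 in SCA3 placebo, 10.23 ± 0.26 in wt CCI-779 and 11.13 ± 0.29 in wt placebo arrays (SD, n = 5, 5, 5 and 4). It was thus lower on every CCI-779 array than on every placebo array, so the spike-in level and the drug cannot be told apart. The GAPDH 3' minus 5' difference, a sign of RNA integrity and labelling, averaged -0.35 ± 0.06 in SCA3 CCI-779, -0.52 ± 0.03 in SCA3 placebo, -0.28 ± 0.32 in wt CCI-779 and -0.54 ± 0.04 in wt placebo arrays (SD, n as above). The wt CCI-779 mean was moved by replicate 1, at 0.28, and was -0.42 over the other 4 arrays, which lay between -0.44 and -0.39. Even so, the GAPDH difference was higher on every CCI-779 array (lowest -0.44) than on every placebo array (highest -0.47). It too cannot be told apart from the drug.

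CCI-779 was accompanied by higher levels of a set of chromatin genes in both genotypes, led by the histone H3 lysine 4 methyltransferases Kmt2a and Kmt2b, the BAF subunits Smarcc2, Smarcd3 and Smarca4, the remodeller Chd3 and the class II deacetylase Hdac5. In SCA3 mice 26 of the 120 probe sets were higher with CCI-779 than with placebo (21.7%, against 10.2% of all tested probe sets) and 0 were lower (against 4.95%), by limma with Benjamini-Hochberg adjusted p under 0.05. At an unadjusted p under 0.05, 39 of the 120 differed in either direction (32.5%, against 30.4% of all). In wt mice 20 were higher (16.7%, against 9.78%) and 4 were lower (3.33%, against 2.11%), with 44 of the 120 at an unadjusted p under 0.05 (36.7%, against 28.9%). Counted by gene, with each gene taken at its brightest probe set, 16 of 73 genes were higher in SCA3 mice (against 11% of all genes) and 15 of 73 in wt mice (against 11.5%), and 0 were lower in either genotype (against 6.09% in SCA3 and 1.64% in wt mice). The counts rested in part on single arrays: 17 were higher in SCA3 mice without SCA3 CCI-779 replicate 2 (against 6.94% of all) or replicate 5 (7.5%) and 16 without SCA3 placebo replicate 2 (7.4%). In wt mice 12 were higher without wt CCI-779 replicate 1 (against 6.48% of all) or wt placebo replicate 3 (5.42%) or 4 (5.65%), and 9 without wt placebo replicate 2 (5.59%). The median log2 difference of the 120 probe sets was 0.07 in SCA3 mice, against 0.01 for all tested probe sets, and 0.10 in wt mice, against 0.05 for all.

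Most differences were small. Only 10 of the 26 probe sets in SCA3 mice and 7 of the 20 in wt mice differed by 1.5-fold or more. The 10 include a dim Smarcc1 probe set described below, whose SCA3 placebo mean lies below the filter and whose fold is not interpreted. The matching share over all called probe sets is not given here. Whether called or not, 20 of the 120 probe sets were higher on every SCA3 CCI-779 array than on every SCA3 placebo array (16.7%, against 8.51% of all tested probe sets), and 0 were lower (against 4.67%). In wt mice 18 were higher without overlap (15%, against 12.1% of all, close to that background) and 3 lower (2.5%, against 2.96%). How many fell depended on how the arrays were put on a common scale. Centring each array on its median gave 19 higher (15.8%, against 7.75% of all) and 5 lower (4.17%, against 9.58%) in SCA3 mice. In wt mice it gave 12 higher (10%, against 4.68%) and 8 lower (6.67%, against 5.68%). Repeating quantile normalization gave 23 higher (19.2%, against 8.92%) and 3 lower (2.5%, against 7.97%) in SCA3 mice, and 12 higher (10%, against 5.78%) and 6 lower (5%, against 3.65%) in wt mice. After centring the median log2 difference of the 120 probe sets was 0.009 in SCA3 mice and -0.003 in wt mice, against -0.05 for all tested probe sets in each genotype, so the members' median in wt mice changed sign.

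The counts changed when these array measures entered the fit or when the arrays that stood apart were left out. Once spike-in intensity entered the fit, 0 of the 120 probe sets passed in either genotype, and 0 of all tested probe sets did. All 26 differences in SCA3 mice stayed positive in that fit, with a median of 0.36 and a median SE of 0.17, against 0.39 and 0.10 without the covariate. All 20 in wt mice stayed positive too, with a median of 0.37 and a median SE of 0.20, against 0.45 and 0.11. These probe sets were picked as higher on the same arrays, so their keeping a positive sign is no separate support. The GAPDH difference likewise separated the CCI-779 from the placebo arrays. With it as a covariate 16 were higher (13.3%, against 9% of all) and 3 lower (2.5%, against 6%) in SCA3 mice. In wt mice 6 were higher (5%, against 2.95%) and 0 lower (against 0.811%). Without SCA3 CCI-779 replicates 2 and 5, 12 were higher in SCA3 mice (10%, against 4.46% of all). Without these and wt CCI-779 replicate 1, 18 were higher in SCA3 mice (15%, against 7.38%) and 14 in wt mice (11.7%, against 8.9%).

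**Figure D1:**
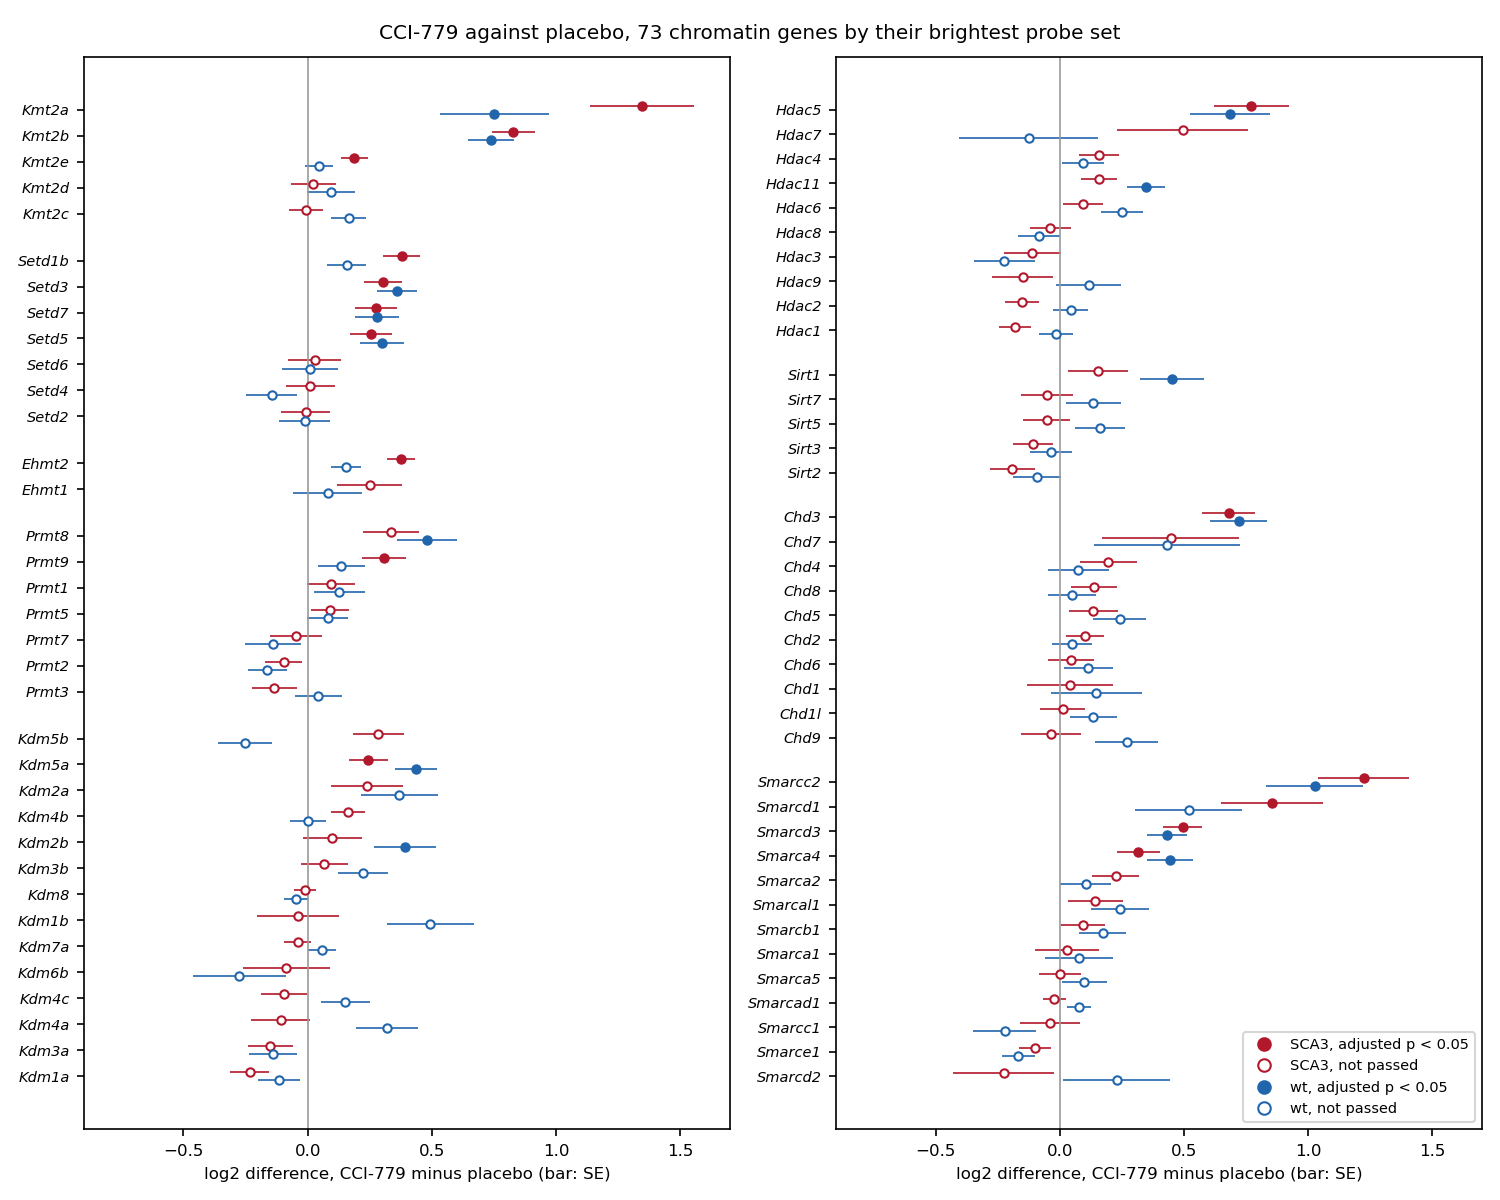
Log2 difference, CCI-779 minus placebo, of the 73 tested genes at their brightest probe set, grouped by family, in SCA3 mice (red, upper point of each pair) and wt mice (blue, lower point). Bars are the SE of the limma fit and filled points have an adjusted p under 0.05; all filled points lie to the right of 0.

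Among the writers, the Kmt2 family had the highest share of probe sets past the threshold in SCA3 mice. There 7 of its 12 were higher (58.3%, against 10.2% of all tested probe sets) and 0 lower (against 4.95%). In wt mice 4 were higher (33.3%, against 9.78%) and 1 lower (8.33%, against 2.11%). Kmt2a (MLL1), which methylates lysine 4 of histone H3 at developmental genes, read 9.53, 10.30, 9.31, 9.44 and 10.57 (log2 intensity, probe set 1452377_at) on the SCA3 CCI-779 arrays, against 8.60, 8.32, 8.61, 8.32 and 8.57 on the SCA3 placebo arrays. In wt mice it read 9.69, 9.07, 9.30, 8.99 and 8.97 with CCI-779, against 8.74, 8.31, 8.36 and 8.40 with placebo. Every CCI-779 array lay above every placebo array of its genotype, and replicates 2 and 5 were the highest of the SCA3 CCI-779 group. The difference was 1.35 (SE 0.21, 2.54-fold, adjusted p = 7.54e-04 by limma) in SCA3 mice and 0.75 (SE 0.22, 1.68-fold, adjusted p = 0.0351) in wt mice. Without SCA3 CCI-779 replicates 2 and 5 it was 0.94 (adjusted p = 0.00388) in SCA3 mice. The call in wt mice was lost without wt CCI-779 replicate 1 or 3 or wt placebo replicate 2, 3 or 4, with adjusted p up to 0.0961. It was also lost in 6 of the 12 other settings run, namely no filter, both scalings, the replicate block and each covariate, where the difference was as small as 0.50. A further Kmt2a probe set, 1427283_at, was higher by 0.54 in SCA3 mice (adjusted p = 0.0204) and by 0.59 in wt mice (adjusted p = 0.0240), again without overlap of the groups.

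Kmt2b (MLL2), the close relative of Kmt2a, had the smallest adjusted p of all the chromatin genes in both genotypes. It read 8.90, 8.84, 8.55, 8.95 and 8.65 on the SCA3 CCI-779 arrays, against 7.99, 7.91, 8.05, 7.76 and 8.04 on the SCA3 placebo arrays. In wt mice the values were 8.90, 8.67, 8.72, 8.80 and 8.61 with CCI-779, against 8.18, 7.87, 8.04 and 7.91 with placebo. The groups were far apart in both genotypes while the placebo groups of SCA3 and wt mice overlapped. The log2 difference was 0.83 (SE 0.09, adjusted p = 7.61e-05) in SCA3 mice and 0.74 (SE 0.09, adjusted p = 5.54e-04) in wt mice. Of the other genes, Kmt2e, whose protein binds methylated histone H3 and is not known as an active methyltransferase, was higher by 0.19 in SCA3 mice at its brightest probe set (adjusted p = 0.0267), while Kmt2d and Kmt2c did not pass at theirs.

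Of 7 tested Setd genes 4 were higher in SCA3 mice (57.1%, against 11% of all genes) and 3 in wt mice (42.9%, against 11.5%). Setd1b, the catalytic subunit of a COMPASS complex that methylates lysine 4 of histone H3, read 8.63, 8.70, 8.57, 8.59 and 8.69 on the SCA3 CCI-779 arrays, against 8.08, 8.16, 8.57, 8.20 and 8.27 on the SCA3 placebo arrays. Values in wt mice were 8.74, 8.59, 8.61, 8.63 and 8.65 with CCI-779, against 8.57, 8.42, 8.40 and 8.56 with placebo. The groups did not overlap, though SCA3 placebo replicate 3 came up to the lowest CCI-779 array. It was higher by 0.38 in SCA3 mice (SE 0.07, adjusted p = 0.00309) and its difference of 0.16 in wt mice did not pass (adjusted p = 0.194). Setd3, which methylates a histidine of actin, was higher by 0.31 in SCA3 mice (adjusted p = 0.0133) and 0.36 in wt mice (adjusted p = 0.00997). Setd7, a lysine methyltransferase of histone H3 and other proteins, was higher by 0.28 in each genotype (adjusted p = 0.0331 in SCA3 and 0.0464 in wt mice), and Setd5 by 0.25 and 0.30 (adjusted p = 0.0497 in SCA3 and 0.0378 in wt mice).

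Ehmt2 (G9a), which methylates lysine 9 of histone H3, read 10.69, 10.67, 10.53, 10.48 and 10.64 on the SCA3 CCI-779 arrays, against 10.19, 10.17, 10.23, 10.35 and 10.20 on the SCA3 placebo arrays. Its values in wt mice were 10.27, 10.48, 10.45, 10.42 and 10.36 with CCI-779, against 10.32, 10.17, 10.25 and 10.23 with placebo. The SCA3 groups did not overlap and the wt groups did. It was higher by 0.38 in SCA3 mice (SE 0.06, adjusted p = 6.54e-04), and the difference of 0.16 in wt mice did not pass (adjusted p = 0.0980). These values are of its brightest probe set, 1460692_at. The other tested Ehmt2 probe set, 1426888_at, went the other way without passing, by -0.11 in SCA3 mice and -0.52 in wt mice. There wt CCI-779 replicate 1 read 6.30, the lowest of all arrays.

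Of the 7 tested arginine methyltransferase genes, 1 was higher in each genotype (14.3%). This is near the 11% of all genes higher in SCA3 mice and the 11.5% in wt mice. Prmt8, which is anchored at the plasma membrane and is largely restricted to brain, read 10.65, 10.48, 10.46, 10.09 and 10.15 in wt mice with CCI-779, against 10.001, 9.80, 9.68 and 10.06 with placebo. In SCA3 mice it read 10.59, 10.24, 10.28, 10.44 and 10.21 with CCI-779, against 10.20, 9.84, 9.97, 9.94 and 10.13 with placebo. The lowest CCI-779 array lay just above the highest placebo array in both genotypes. The difference was 0.48 in wt mice (SE 0.12, adjusted p = 0.0165), lost without wt placebo replicate 2 or 3 (adjusted p up to 0.0616) and in 3 of the 12 other settings, and 0.34 in SCA3 mice (adjusted p = 0.0530). Prmt9, an arginine methyltransferase of a splicing factor, was higher by 0.31 in SCA3 mice (adjusted p = 0.0288).

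**Figure D2:**
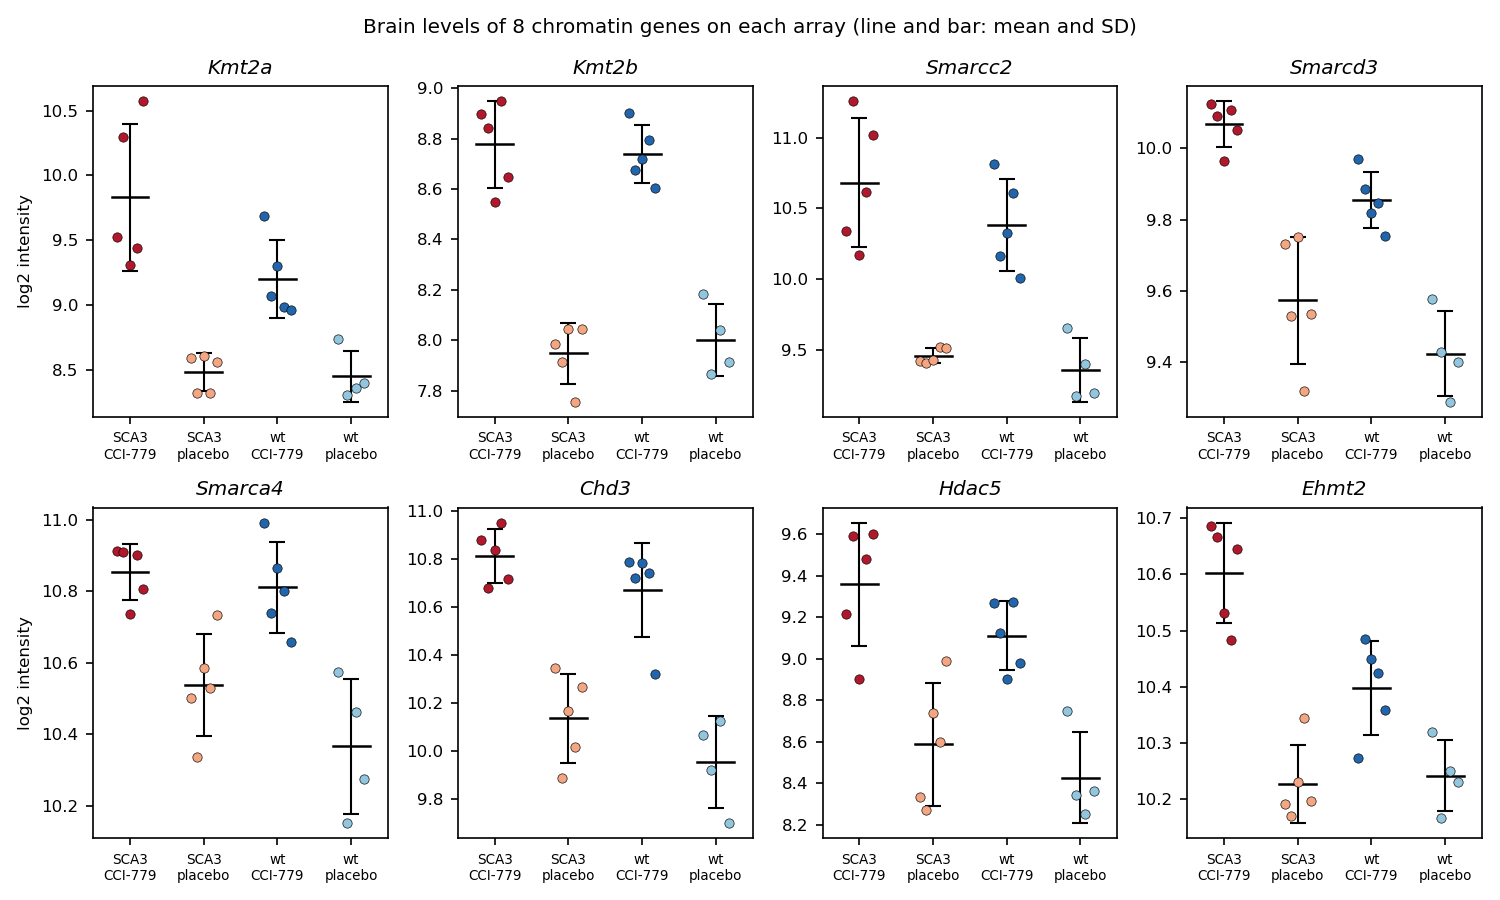
Log2 intensity of 8 chromatin genes, each at its brightest probe set, on all 19 arrays, with the line and bar giving the mean and SD of the 5, 5, 5 and 4 arrays of a group. CCI-779 arrays lie above the placebo arrays of their genotype without overlap for Kmt2a, Kmt2b, Smarcc2, Smarcd3, Smarca4 and Chd3, while Hdac5 overlaps in SCA3 mice and Ehmt2 in wt mice.

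Among the erasers, of 14 tested demethylase genes 1 was higher in SCA3 mice (7.14%) and 2 in wt mice (14.3%). Of 10 deacetylase genes 1 (10%) and 2 (20%) were higher, and of 5 sirtuin genes 0 and 1 (20%). Over all genes the shares were 11% in SCA3 and 11.5% in wt mice, so these small counts by gene lie near that background. Counted by probe set, the deacetylases had larger shares, with 3 of 14 higher in SCA3 mice (21.4%, against 10.2% of all tested probe sets). In wt mice 4 of the 14 were higher (28.6%, against 9.78%). Of 24 demethylase probe sets 2 (8.33%) and 3 (12.5%) were higher, and of 6 sirtuin probe sets 0 and 1 (16.7%). Differences between families were not tested. Hdac5, a class II deacetylase that represses genes bound by MEF2, read 9.21, 9.59, 8.90, 9.48 and 9.60 on the SCA3 CCI-779 arrays, against 8.33, 8.27, 8.74, 8.60 and 8.99 on the SCA3 placebo arrays. The wt arrays gave 9.27, 9.12, 8.90, 9.27 and 8.98 with CCI-779, against 8.75, 8.34, 8.25 and 8.36 with placebo. SCA3 placebo replicate 5 was above the lowest SCA3 CCI-779 array, and the wt groups did not overlap. The difference was 0.77 in SCA3 mice (SE 0.15, adjusted p = 0.00322) and 0.68 in wt mice (SE 0.16, adjusted p = 0.0122).

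Kdm5a, which removes methyl groups from lysine 4 of histone H3, read 9.63, 9.67, 9.62, 9.70 and 9.63 on the wt CCI-779 arrays, against 9.32, 9.26, 8.97 and 9.30 on the wt placebo arrays (probe set 1437105_at). In SCA3 mice it read 9.50, 9.45, 9.55, 9.59 and 9.45 with CCI-779, against 9.46, 8.98, 9.33, 9.29 and 9.26 with placebo. The wt groups did not overlap and the SCA3 groups met at their edges. It was higher by 0.44 in wt mice (SE 0.08, adjusted p = 0.00429) and by 0.24 in SCA3 mice (adjusted p = 0.0464). The other tested Kdm5a probe sets, 1452360_a_at and 1437106_at, were far dimmer (means 5.40 and 5.26) and did not pass in wt mice. There 1452360_a_at read 5.07, 5.44, 5.59, 5.35 and 5.34 with CCI-779, against 5.40, 5.33, 5.33 and 5.82 with placebo. In SCA3 mice that probe set read 5.29, 5.61, 5.58, 5.52 and 5.90, against 5.26, 5.08, 5.36, 5.21 and 5.20. Kdm2b, a demethylase that also brings Polycomb complexes to CpG islands, was higher by 0.39 in wt mice (adjusted p = 0.0496) and its difference of 0.10 in SCA3 mice did not pass. Its other tested probe set, 1459861_s_at, was nearly as bright (mean 8.39, against 8.55). That probe set averaged lower with CCI-779 in both genotypes without passing (log2 difference -0.28 in SCA3 mice).

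Sirt1, the NAD-dependent deacetylase of histones and transcription factors, read 8.85, 8.14, 8.36, 8.53 and 8.34 in wt mice with CCI-779, against 8.21, 7.94, 7.70 and 8.12 with placebo. The groups overlapped through a single array on each side. It was higher by 0.45 (SE 0.13, adjusted p = 0.0318), a call lost without wt CCI-779 replicate 1 or 4 or wt placebo replicate 2 or 3 (adjusted p up to 0.113). The call was also lost in 6 of the 12 other settings (no filter, both scalings, the compared groups alone and each covariate), with a difference as small as 0.16 beside the spike-in covariate. The Sirt1 difference of 0.15 in SCA3 mice did not pass. Hdac11, the only class IV deacetylase, was higher by 0.35 in wt mice (adjusted p = 0.00886) and by 0.16 in SCA3 mice, which did not pass (adjusted p = 0.147). Sirt2, Kdm1a, Hdac1, Hdac2 (1445684_s_at) and Hdac11 (1454803_a_at) did not pass on the deposited scale and were lower in SCA3 mice after median centring, with log2 differences of -0.25, -0.29, -0.24, -0.21 and -0.29 in that order.

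Of 25 tested Smarc probe sets 7 were higher in SCA3 mice (28%, against 10.2% of all tested probe sets) and 0 lower (against 4.95%). In wt mice 3 were higher (12%, against 9.78%, near that background) and 1 lower (4%, against 2.11%). The 7 include a dim Smarcc1 probe set described below. Among the remodellers, Smarcc2 (BAF170), a core scaffold subunit of BAF complexes, had the largest change at the brightest probe set in both genotypes. It read 10.34, 11.26, 10.17, 10.61 and 11.02 on the SCA3 CCI-779 arrays, against 9.42, 9.41, 9.43, 9.52 and 9.51 on the SCA3 placebo arrays. On the wt arrays it read 10.81, 10.16, 10.32, 10.61 and 10.004 with CCI-779, against 9.65, 9.17, 9.40 and 9.19 with placebo. The placebo arrays were tightly grouped, all CCI-779 arrays lay above them, and SCA3 CCI-779 replicates 2 and 5 were again the highest. The difference was 1.22 in SCA3 mice (SE 0.18, 2.33-fold, adjusted p = 5.99e-04), or 0.92 without replicates 2 and 5 (adjusted p = 0.00531), and 1.03 in wt mice (SE 0.19, 2.04-fold, adjusted p = 0.00385).

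Smarcd3 (BAF60C), a subunit found in BAF complexes of heart and neurons, read 10.13, 10.09, 9.96, 10.11 and 10.05 on the SCA3 CCI-779 arrays, against 9.73, 9.53, 9.75, 9.32 and 9.53 on the SCA3 placebo arrays. In wt mice it read 9.97, 9.89, 9.82, 9.85 and 9.76 with CCI-779, against 9.58, 9.43, 9.29 and 9.40 with placebo. The groups did not overlap in either genotype. The difference was 0.49 in SCA3 mice (SE 0.08, adjusted p = 8.00e-04) and 0.43 in wt mice (SE 0.08, adjusted p = 0.00389).

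Smarca4 (BRG1), the ATPase that drives the BAF complex, read 10.91, 10.91, 10.74, 10.90 and 10.81 on the SCA3 CCI-779 arrays, against 10.50, 10.34, 10.59, 10.53 and 10.73 on the SCA3 placebo arrays (probe set 1426804_at). Values in wt mice were 10.99, 10.74, 10.87, 10.80 and 10.66 with CCI-779, against 10.58, 10.15, 10.46 and 10.28 with placebo. The groups lay close together without overlap. It was higher by 0.32 in SCA3 mice (SE 0.09, adjusted p = 0.0211), a call lost without SCA3 CCI-779 replicate 2 (adjusted p = 0.0526), without SCA3 placebo replicate 2 (adjusted p = 0.0589) or without SCA3 CCI-779 replicates 2 and 5 together (adjusted p = 0.0894), the last among 4 of the 12 other settings in which it was lost. In wt mice it was higher by 0.44 (SE 0.09, adjusted p = 0.00618).

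Smarcd1 (BAF60A), an alternative to Smarcd3 in the complex, read 7.98, 9.06, 7.83, 8.14 and 8.75 on the SCA3 CCI-779 arrays, against 7.83, 7.22, 7.45, 7.53 and 7.48 on the SCA3 placebo arrays. The wt arrays gave 8.40, 7.97, 8.02, 7.94 and 7.83 with CCI-779, against 7.81, 7.46, 7.69 and 7.10 with placebo. Replicates 2 and 5 were the highest of the SCA3 CCI-779 group, whose lowest array met the highest placebo array. The SCA3 difference was 0.85 (SE 0.20, adjusted p = 0.0104) with them and 0.49 (adjusted p = 0.0891) without them, and the wt difference of 0.52 did not pass (adjusted p = 0.122).

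Chd3, an ATPase of the NuRD repressor complex, read 10.88, 10.68, 10.84, 10.95 and 10.72 on the SCA3 CCI-779 arrays, against 10.34, 9.89, 10.17, 10.02 and 10.26 on the SCA3 placebo arrays. On the wt arrays it read 10.79, 10.72, 10.79, 10.74 and 10.32 with CCI-779, against 10.07, 9.92, 10.13 and 9.70 with placebo. The groups did not overlap, although wt CCI-779 replicate 5 lay well below the rest of its group. It was higher by 0.68 in SCA3 mice (SE 0.11, adjusted p = 8.21e-04) and by 0.72 in wt mice (SE 0.11, adjusted p = 0.00153). It was the only 1 of 10 tested Chd genes past the threshold at the brightest probe set in either genotype. That is 10% of them, against 11% of all genes higher in SCA3 mice and 11.5% in wt mice.

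**Figure D3:**
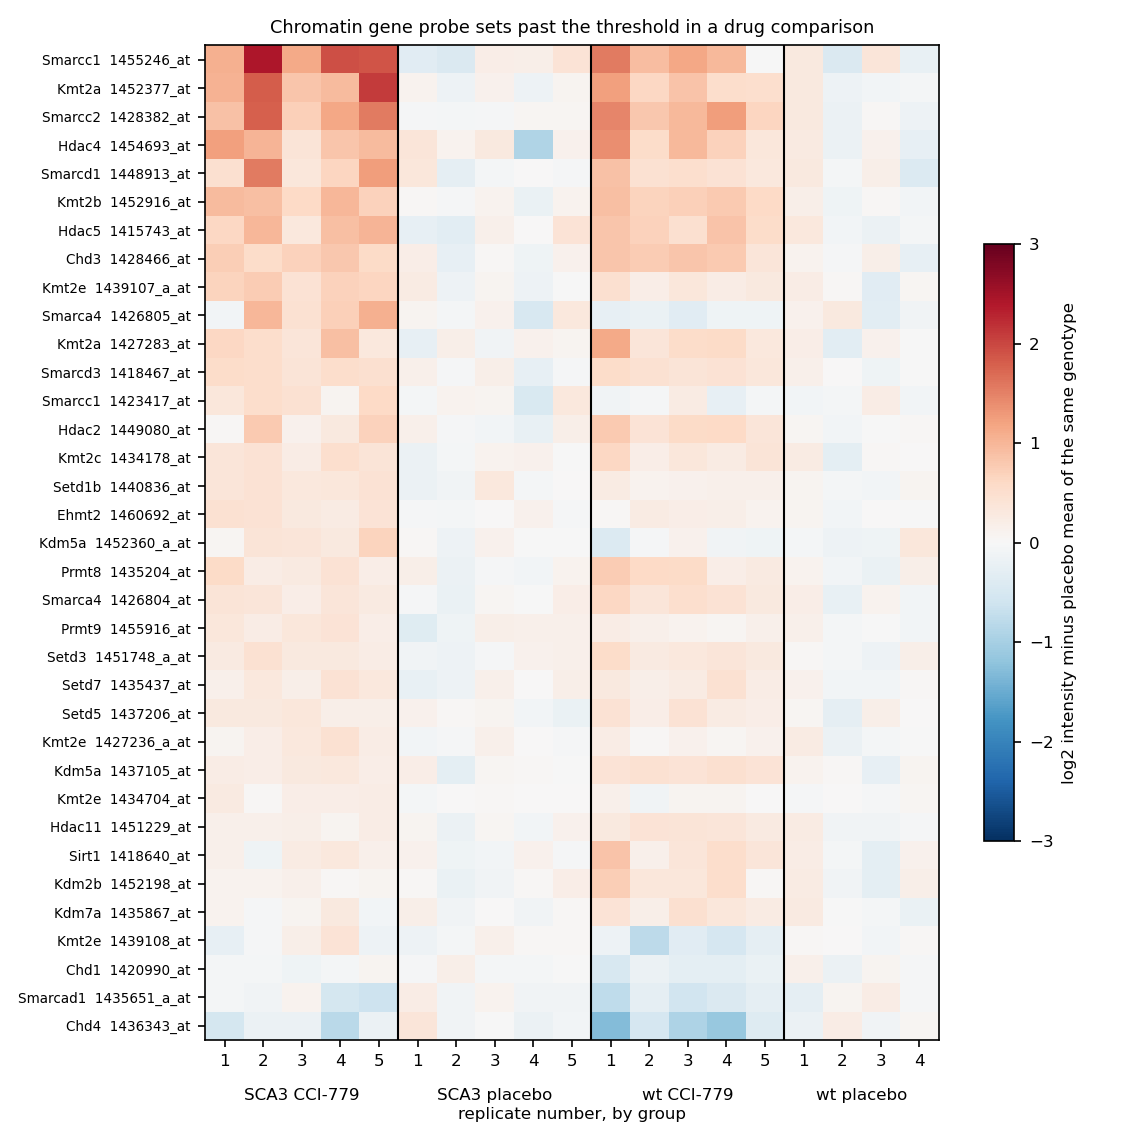
Each of the 35 probe sets past the threshold in a drug comparison (down the page) on each of the 19 arrays (across), coloured by log2 intensity minus the placebo mean of the same genotype. SCA3 CCI-779 replicates 2 and 5 and wt CCI-779 replicate 1 hold many of the darkest cells of the upper probe sets, and the 4 probe sets lower in wt mice stand at the bottom.

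The drug comparisons of SCA3 and wt mice share no arrays, but they share the estimate of the spread from a single fit. The spike-in and GAPDH differences between CCI-779 and placebo arrays also run through both, so the lists are not independent of each other. In all, 15 of the 120 probe sets, from 14 genes, were higher in both (12.5%, against 5.06% of all tested probe sets). They make up 57.7% of the SCA3 list and 75% of the wt list. Over all tested probe sets the shared ones make up 49.4% of the SCA3 list and 51.7% of the wt list, so the share of the SCA3 list is near that background. They belonged to Kmt2a (both probe sets above), Kmt2b, Kmt2c, Setd3, Setd5, Setd7, Kdm5a, Hdac2, Hdac4, Hdac5, Chd3, Smarca4, Smarcc2 and Smarcd3. The wt difference was positive for 23 of the 26 probe sets higher in SCA3 mice. Over the 120 probe sets the SCA3 and wt differences had a Pearson r of 0.70, given as a description across probe sets that share arrays and include several for 1 gene.

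**Figure D4:**
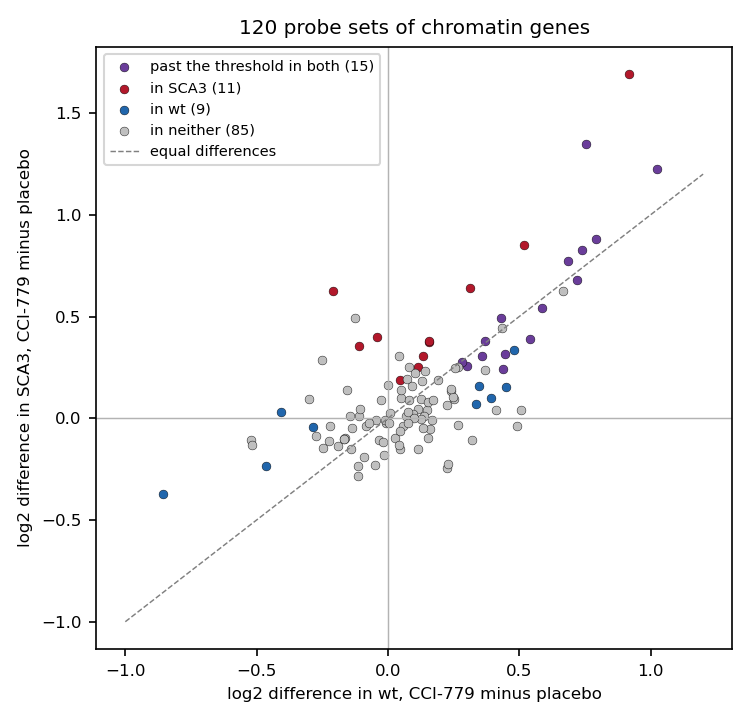
Log2 difference, CCI-779 minus placebo, of the 120 tested probe sets in SCA3 mice (vertical) against wt mice (horizontal), with the dashed line marking equal differences. The 15 probe sets past the threshold in both lie at the upper right, 11 passed in SCA3 mice alone, 9 in wt mice alone and 85 in neither.

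The transgene itself was not accompanied by a detected difference in these genes. Between SCA3 placebo and wt placebo 0 of 120 probe sets passed (0.00977% of all did, smallest adjusted p among the 120 0.572), and 9 had an unadjusted p under 0.05 (7.5%, against 5.75% of all). The smallest p belonged to Kdm5b (1427143_at), a demethylase of lysine 4 of histone H3, which read 8.40, 8.28, 8.55, 8.47 and 8.58 in SCA3 placebo, against 8.90, 9.02, 8.56 and 8.90 in wt placebo arrays. The groups touched at a single wt array, and the difference was -0.39 (SE 0.11, adjusted p = 0.572). Hdac11 differed by 0.23 (adjusted p = 0.678) and Setd1b by -0.23 (adjusted p = 0.699), neither past the threshold.

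Between SCA3 CCI-779 and wt CCI-779 0 of 120 passed as well (0.00977% of all did, smallest adjusted p among the 120 0.111), with 19 at an unadjusted p under 0.05 (15.8%, against 15.4% of all). Among brightest probe sets, the genes nearest to the threshold were Hdac2 (1445684_s_at, -0.30, adjusted p = 0.111), Ehmt2 (0.20, adjusted p = 0.156) and Kdm3b (-0.31, adjusted p = 0.181), and the Kdm7a probe set 1435867_at, which is not the brightest of its gene, came before Kdm3b (-0.32, adjusted p = 0.160). Whether the drug difference depended on genotype was tested by the interaction, SCA3 drug difference minus wt drug difference, and 0 of 120 passed (0% of all did), with 10 at an unadjusted p under 0.05 (8.33%, against 7.68% of all). Kdm5b came first, with drug differences of 0.28 in SCA3 mice and -0.25 in wt mice and an interaction of 0.54 (SE 0.15, adjusted p = 0.518). At the brightest probe sets Ehmt2 followed with 0.22 (adjusted p = 0.594) and Kdm4a with -0.43 (adjusted p = 0.633), while other probe sets of Smarca4, Kdm5a and Kmt2e had a smaller p than Kdm4a. The larger Kmt2a difference in SCA3 mice, and the genes past the threshold in 1 genotype alone, were therefore not shown to differ between genotypes.

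Of the 73 tested genes 35 had more than 1 tested probe set, and in 9 of them the probe sets disagreed in a drug comparison. These probe sets read different stretches of a gene's transcripts, and their positions were not used here. Hdac2, a class I deacetylase, did not pass at its brightest probe set (1445684_s_at, -0.15 in SCA3 and 0.04 in wt mice). Its probe set 1449080_at read 10.03, 10.76, 10.12, 10.28 and 10.66 on the SCA3 CCI-779 arrays, against 10.12, 9.94, 9.90, 9.76 and 10.17 on the SCA3 placebo arrays. In wt mice that probe set read 10.60, 10.23, 10.39, 10.44 and 10.18 with CCI-779, against 9.88, 9.74, 9.83 and 9.86 with placebo. The SCA3 groups overlapped and the wt groups did not. The differences of 0.39 (adjusted p = 0.0469) and 0.54 (adjusted p = 0.0167) passed in SCA3 and wt mice, but without SCA3 CCI-779 replicates 2 and 5 that in SCA3 mice was 0.16 (adjusted p = 0.384), and it was also lost in 13 of the 19 fits that left out 1 array and in 9 of the 12 other settings.

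Smarcc1 (BAF155), the partner of Smarcc2, had a dim probe set near the filter. Probe set 1455246_at read 4.92, 6.28, 4.99, 5.78 and 5.73 on the SCA3 CCI-779 arrays, against 3.50, 3.41, 4.04, 4.03 and 4.25 on the SCA3 placebo arrays. In wt mice it read 5.32, 4.67, 4.92, 4.72 and 3.74 with CCI-779, against 4.04, 3.33, 4.12 and 3.54 with placebo. The SCA3 groups did not overlap and the wt groups did. The placebo means of 3.85 in SCA3 and 3.76 in wt mice lie below the filter of 4, which the probe set passed through its CCI-779 arrays, so these levels are a description and no fold or test is given. It is 1 of the 26 probe sets counted as higher in SCA3 mice, and the placebo means of the other 25 were not below the filter. It is also among the 10 counted above as differing by 1.5-fold or more in SCA3 mice. The brightest Smarcc1 probe set differed by -0.04 in SCA3 and -0.22 in wt mice without passing. The remaining Smarcc1 probe set, 1423417_at, was higher by 0.40 in SCA3 mice (adjusted p = 0.0497), a call lost in 14 of the 19 fits that left out 1 array and in 8 of the 11 other settings.

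Hdac4, the close relative of Hdac5, was higher at 1454693_at by 0.88 in SCA3 mice (adjusted p = 0.0169; 0.0993 without replicates 2 and 5) and by 0.79 in wt mice (adjusted p = 0.0440, lost in 11 of the 19 fits that left out 1 array and in 8 of the 12 other settings, with a difference as small as 0.25). The brightest Hdac4 probe set differed by 0.16 and 0.09 in SCA3 and wt mice without passing. Kmt2c (MLL3), an enhancer methyltransferase, was higher at 1434178_at by 0.38 in SCA3 mice (adjusted p = 0.0142; 0.0841 without replicates 2 and 5) and by 0.37 in wt mice (adjusted p = 0.0273; up to 0.103 without wt CCI-779 replicate 1 or wt placebo replicate 2, 3 or 4, and lost in 7 of the 12 other settings, down to 0.11), against -0.01 and 0.17 at its brightest probe set. For Kdm7a, a demethylase of repressive histone marks, probe set 1435867_at was higher by 0.33 in wt mice (adjusted p = 0.0326; up to 0.112 without 1 of wt CCI-779 replicates 1, 3 and 4 or wt placebo replicates 2, 3 and 4, and lost in 7 of the 12 other settings, down to 0.12), while its brightest probe set did not pass. The remaining tested Kdm7a probe set, 1427359_at, differed by -0.52 in wt mice without passing, with wt CCI-779 replicate 1 lowest at 5.08.

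All 4 probe sets that were lower in wt mice belonged to such genes. Chd4, the main NuRD ATPase, read 5.12, 5.91, 5.50, 5.28 and 6.03 at probe set 1436343_at in wt mice with CCI-779, against 6.24, 6.66, 6.32 and 6.49 with placebo. The groups did not overlap and the difference was -0.86 (SE 0.18, adjusted p = 0.00710), while the far brighter Chd4 probe set 1451295_a_at differed by 0.07 (adjusted p = 0.718). Kmt2e was lower at 1439108_at in wt mice (log2 difference -0.41, adjusted p = 0.0429, lost in 10 of the 19 fits that left out 1 array and in 5 of the 12 other settings) and, in SCA3 mice, higher at 1439107_a_at by 0.64 (adjusted p = 8.21e-04) and at 1427236_a_at by 0.25 (adjusted p = 0.0387). Chd1, a remodeller that binds methylated lysine 4 of histone H3, was lower at 1420990_at (log2 difference -0.29, adjusted p = 0.0266; up to 0.0816 without wt CCI-779 replicate 1 or 3 or wt placebo replicate 1 or 3, and lost in 4 of the 11 other settings). Smarcad1, a remodeller of silenced chromatin, was lower at 1435651_a_at (log2 difference -0.46, adjusted p = 0.04996). After median centring Smarce1, Kdm5b, Prmt2 and a further probe set of Chd4 were also lower in wt mice.

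**Figure D5:**
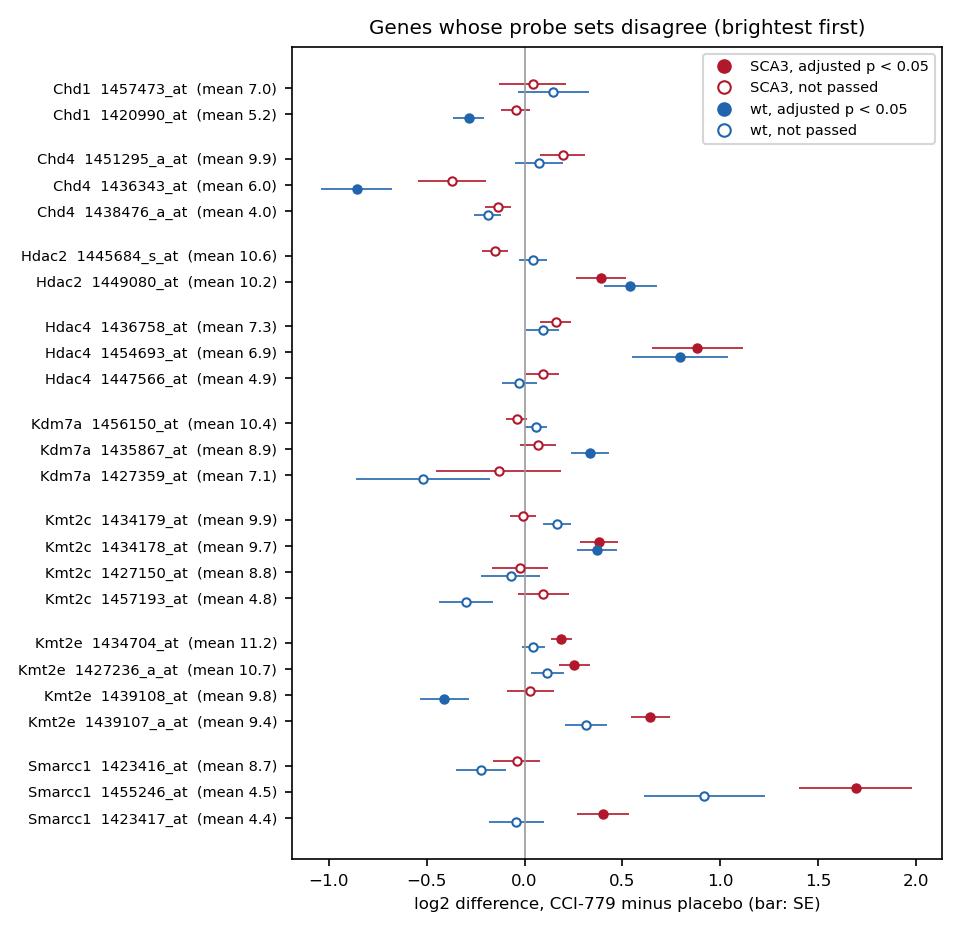
Log2 difference, CCI-779 minus placebo, of every tested probe set of 8 genes whose probe sets disagree, ordered within a gene by mean log2 intensity, in SCA3 mice (red) and wt mice (blue); bars are the SE and filled points have an adjusted p under 0.05. Filled points lie on both sides of 0, with Chd4 1436343_at lowest at -0.86 in wt mice. Smarcc1 1455246_at is drawn at its measured values, although its placebo means lie below the filter of 4. Its filled point in SCA3 mice is therefore not read as a test.

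Genes that work with these enzymes were counted from a list of 83 partners (acetyltransferases, Polycomb repressive complex 2, other methyltransferases, COMPASS, BAF and NuRD subunits, ISWI and INO80 partners, corepressors, DNA methylation and acetyl-lysine readers), of which 68 were tested. In SCA3 mice 15 were higher (22.1%, against 11% of all genes) and 2 lower (2.94%, against 6.09%), and in wt mice 13 were higher (19.1%, against 11.5%) and 1 lower (1.47%, against 1.64%). In SCA3 mice Gatad2b, a NuRD subunit, was higher by 0.73 (adjusted p = 0.00267), Gatad2a, its paralogue, by 0.49 (adjusted p = 0.00550), Kat6b, an acetyltransferase, by 0.44 (adjusted p = 0.00350) and Ep400, a remodelling ATPase, by 0.42 (adjusted p = 0.00234). In wt mice Brd3, a reader of acetylated histones, was higher by 0.55 (adjusted p = 0.00632), Ep400 by 0.44 (adjusted p = 0.00408), Kat6b by 0.42 (adjusted p = 0.00969) and the BAF subunit Pbrm1 by 0.34 (adjusted p = 0.00239). Rbbp4, a histone chaperone of NuRD and Polycomb complexes, was lower in SCA3 mice (log2 difference -0.21, adjusted p = 0.0121) and wt mice (-0.26, adjusted p = 0.00645), and Mta3, another NuRD subunit, was lower in SCA3 mice (-0.40, adjusted p = 0.0428). The 5 tested COMPASS core subunits shared by the Kmt2 and Setd1 enzymes gave 0 calls in either genotype.

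Markers of brain cell types were measured beside these genes, because in whole brain fewer cells of a type and less RNA per cell cannot be told apart. Neuronal markers were bright throughout, with a mean over 7 markers of 12.82 to 13.04 (log2) on SCA3 CCI-779 and 12.89 to 13.04 on SCA3 placebo arrays, and 12.89 to 12.95 on wt CCI-779 and 12.93 to 13.02 on wt placebo arrays, so the label brain was borne out. Of these 7 markers Rbfox3 was lower, with log2 differences of -0.27 in SCA3 mice and -0.38 in wt mice. Over all genes 6.09% were lower in SCA3 mice and 1.64% in wt mice, while 11% and 11.5% were higher. Microglial markers were lower in 3 of 6 in each drug comparison, and their mean was 8.15 to 8.36 on SCA3 CCI-779 against 8.48 to 8.58 on SCA3 placebo arrays, and 8.06 to 8.29 on wt CCI-779 against 8.47 to 8.66 on wt placebo arrays. Of 6 oligodendrocyte and myelin markers 2 were lower in SCA3 mice, where their mean was 12.20 to 12.64 with CCI-779 against 12.50 to 12.99 with placebo, and 0 were called in wt mice. Their part in the differences of the chromatin genes was not tested. Of the astrocyte markers 1 of 6 was higher in wt mice, 1 of 4 meningeal markers was higher in each genotype, and of 3 oligodendrocyte precursor markers 1 was lower in SCA3 mice and 1 higher in wt mice. Single calls in lists this short cannot be told from the shares over all genes. The 3 tested endothelial, 3 choroid plexus and 1 tested blood marker were not called in either drug comparison, nor was any marker in the other comparisons.

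The promoters of the chromatin genes were read from RefSeq (build GRCm38.p6) as the 250 bases upstream of each annotated start, because several members were higher together. The 4 below belong to genes higher in both genotypes at their brightest probe set, given 5′ to 3′ on the strand of the gene, with capitals marking GGGCGG or its reverse complement CCGCCC, the core of a GC box. They show GC-rich sequence with no TATAAA on either strand, and neither CCAAT nor CACGTG was found in them.
Kmt2a promoter, chr9:44881290-44881539, minus strand: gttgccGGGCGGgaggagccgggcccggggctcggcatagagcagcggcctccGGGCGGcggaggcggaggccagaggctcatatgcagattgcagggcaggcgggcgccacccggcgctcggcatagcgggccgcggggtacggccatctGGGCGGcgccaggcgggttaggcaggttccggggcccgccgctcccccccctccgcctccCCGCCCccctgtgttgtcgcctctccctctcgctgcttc
Smarcc2 promoter, chr10:128458986-128459235, plus strand: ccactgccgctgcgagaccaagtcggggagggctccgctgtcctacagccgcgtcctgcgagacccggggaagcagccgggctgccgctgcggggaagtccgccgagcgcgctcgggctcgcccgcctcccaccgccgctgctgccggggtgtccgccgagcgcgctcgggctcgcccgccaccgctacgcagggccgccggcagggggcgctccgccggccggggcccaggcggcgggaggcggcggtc
Smarcd3 promoter, chr5:24602003-24602252, minus strand: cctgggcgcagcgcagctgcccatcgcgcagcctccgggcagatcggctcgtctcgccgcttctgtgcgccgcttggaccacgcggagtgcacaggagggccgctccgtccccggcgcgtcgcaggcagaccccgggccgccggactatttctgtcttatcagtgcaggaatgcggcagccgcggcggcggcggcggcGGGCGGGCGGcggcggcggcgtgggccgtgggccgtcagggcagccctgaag
Smarca4 promoter, chr9:21615919-21616168, plus strand: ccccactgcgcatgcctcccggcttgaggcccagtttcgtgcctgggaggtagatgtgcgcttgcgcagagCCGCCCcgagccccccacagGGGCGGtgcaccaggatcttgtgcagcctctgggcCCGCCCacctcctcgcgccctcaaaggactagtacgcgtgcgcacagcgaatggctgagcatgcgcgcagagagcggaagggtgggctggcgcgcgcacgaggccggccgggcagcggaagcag

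The Kmt2a promoter is 76.8% G or C with 29 CpG and 4 GGGCGG, Smarcc2 is 80.8% with 40 CpG and 0 GGGCGG, Smarcd3 is 76% with 38 CpG and 2 overlapping GGGCGG, and Smarca4 is 70.8% with 25 CpG and 3 GGGCGG. Among 82 promoters of 63 member genes in the table, 65.9% held GGGCGG on either strand, against 32.7% of all 32851 promoters of 27025 genes. TATAAA was present in 4.88% of the member promoters, against 12.4% of all, CCAAT in 32.9%, against 33.8%, and CACGTG in 7.32%, against 6.02%. For the 12 promoters of 11 genes higher in both drug comparisons, 9 held GGGCGG (75%), 4 held CCAAT (33.3%) and 0 held TATAAA or CACGTG. Median GC was 71.4% in those 12, 62.2% in the 82 and 52.4% in all promoters. A match describes the letters in this window and is not a measured binding site.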

How the data were processed

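Per the labels' protocols, total RNA of the 19 brain samples was column-purified and biotin-labelled. The authors deposited linear intensity values for 45101 probe sets. The submitters' processing notes name GCRMA, a method that corrects background by probe sequence, quantile-normalizes and summarises each probe set. Genome build and scan batches are not given in the sources used here. Values were taken to log2 with no pseudocount, and 64 control probe sets were left out of tests.

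Groups came from the genotype and agent in the labels. limma 3.58.1 (R 4.3.3) was fitted once to all 19 arrays with 4 group means over the 20473 probe sets averaging 4 or more (log2) (45.5% of non-control probe sets), and p-values were Benjamini-Hochberg adjusted over all of them, two-sided, at 0.05. Means carry SDs over arrays and differences carry the SE of the fit; the number of arrays limits the precision. The fit was tested on simulated data.

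Probe sets were named from GEO's platform annotation, where 34945 have 1 gene symbol, 932 several and 9160 none. All 175 member probe sets matched the reference gene table, and 1 probe set with several symbols, of which 1 fitted, was left out. Members and lists were chosen with earlier results of these data known. Named in each drug comparison were up to 10 genes higher and 10 lower by size at their brightest tested probe set, in the other 3 comparisons the 3 genes with the smallest p, up to 8 genes whose probe sets disagree, and any gene a small count is about. Other members past the threshold at their brightest probe set, the second Kmt2a probe set, Smarcad1, the Kdm7a, Smarca4, Kdm5a and Kmt2e probe sets beside the ranked genes of the genotype comparison and the interaction, and the 4 printed promoters were chosen after their values were seen. Partner examples are up to 4 in each direction by smallest p. Promoters came from RefSeq's GRCm38.p6 annotation.

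Alternatives were other filters, scalings, variance models and covariates, the replicate number as a block, the compared groups alone, genes in place of probe sets, and arrays left out.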

Additional observations from a re-analysis of the deposited data

Results flagged for a closer look

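Values of the named probe sets were checked for an array far from the others of its group, in 108 groups of 4 or 5 arrays, and 5 stood apart by Dixon's test, where chance gives about 1 in 20. Chd3 (1428466_at) read 10.32 in wt CCI-779 replicate 5, against 10.72 to 10.79 on the other arrays of the group. Hdac11 (1451229_at) read 10.62 in wt placebo replicate 1, against 10.26 to 10.32. Chd1 (1420990_at) read 5.37 in SCA3 placebo replicate 2, against 5.12 to 5.18. Smarcc1 (1423417_at) read 4.61 in wt placebo replicate 3, against 4.30 to 4.32. Hdac4 (1454693_at) read 5.50 in SCA3 placebo replicate 4, against 6.52 to 6.77.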

How the results depend on the processing

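Of the 120 tested probe sets, 26 were higher and 0 lower with CCI-779 in SCA3 mice, and 20 higher and 4 lower in wt mice. No count of the genotype comparisons or of the interaction moved off 0 in the settings run, and 0 of the 41 named results reversed. Of 1264 pairs of a named result and a setting, 1092 kept their side of the threshold and 172 were lost. The 1092 include named results that had not passed at the outset and so could not be lost. Leaving out an array of the other genotype also keeps the size of a drug difference unchanged. Its adjusted p can still move through the shared estimate of the spread, and some calls were lost that way. The total therefore does not measure how well the passing results held. Without a filter 17 were higher (9.71%, against 3.29% of all) and 0 lower (against 1.54%) in SCA3 mice. In wt mice 11 were then higher (6.29%, against 2.91%) and 2 lower (1.14%, against 0.606%). With a mean log2 of at least 6 there was 1 lower in SCA3 mice (1.04%, against 6.6% of all) and 2 lower in wt mice (2.08%, against 2.57%). Quantile normalization gave 3 lower in SCA3 and 12 higher in wt mice, and median centring 5 lower in SCA3 and 12 higher and 8 lower in wt mice. A trended, robust variance and array weights each gave 1 lower in SCA3 mice (0.833%, against 5.36% and 5.76% of all). The compared groups alone gave 11 higher (9.17%, against 5.71% of all) and 1 lower (0.833%, against 0.948%) in wt mice. The spike-in covariate gave 0 in all, and the GAPDH covariate 16 higher and 3 lower in SCA3 and 6 higher and 0 lower in wt mice. Without SCA3 CCI-779 arrays 2 and 5, 12 were higher in SCA3 mice (10%, against 4.46% of all). With wt CCI-779 array 1 also left out 2 were lower in wt mice (1.67%, against 2.82%). Counted by gene, 16 were higher in SCA3 mice (21.9%, against 11% of all) and 0 lower in wt mice (against 1.64%). The cause of each change was not tested, except that fewer features enter the count by gene.

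Leaving out 1 array at a time gave 16 to 30 higher and 0 to 3 lower in SCA3 mice, and 9 to 23 higher and 1 to 4 lower in wt mice. The share over all features moved with the counts. At 16 and 30 higher the shares were 13.3% (against 7.4% of all) and 25% (against 12.3%). At 9 and 23 higher they were 7.5% (against 5.59%) and 19.2% (against 11.2%). The SCA3 count was 17 without SCA3 CCI-779 replicate 2 or 5 and 16 without SCA3 placebo replicate 2. The wt count of higher probe sets was 12 without wt CCI-779 replicate 1 or wt placebo replicate 3 or 4 and 9 without wt placebo replicate 2.

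The labels do not say whether the replicate numbers pair the samples. Deviations of same-numbered arrays correlated between -0.13 and 0.29 in the SCA3 drug comparison (3 of 5 over 0.1). In the wt one they correlated between -0.10 and 0.23 (2 of 4 over 0.1). So few correlations cannot decide whether the samples were paired. With the number as a block, 22 were higher (18.3%, against 9.05% of all) and 0 lower (against 4.42%) in SCA3 mice. In wt mice 19 were higher (15.8%, against 8.48%) and 2 lower (1.67%, against 1.63%).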
